A study of Mus musculus with 8 samples.

Results

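The comparison described here sets mouse cells that were moved from the small molecule IDE2 to fibroblast growth factor 10 (FGF10) against cells that stayed in IDE2. It was chosen by the labels of the arrays: 2 arrays titled IDE2+FGF10 (IDE2+FGF10a and IDE2+FGF10b) and 2 titled IDE2 (IDE2a and IDE2b), 4 of the 8 arrays in the series. All cells came from the embryonic stem (ES) cell line E14TG2a, grown with serum and leukaemia inhibitory factor until differentiation began. IDE2+FGF10 cells spent 6 days in 1 uM IDE2 and then 5 days in 25 ng/ml FGF10. IDE2 cells spent all 11 days in 1 uM IDE2. Both groups were cultured in the same medium, a mixture of Iscove's and Ham's F12 media with N2, B27, 1% fetal calf serum, 1-thioglycerol and ascorbic acid. The other 4 arrays, which share in estimating the error, were 2 of cells moved after 6 days to 500 ng/ml FGF2 for 5 days (IDE2+FGF2) and 2 of undifferentiated cells (ES). The study asked how lung epithelium can be obtained from ES cells.

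FGF10 is a secreted growth factor that embryonic lung mesenchyme makes and that acts on the IIIb form of the receptor FGFR2 in the neighbouring epithelium, where it drives the outgrowth of lung buds. Receptor signalling through the MAP kinase ERK raises the ETS factors Etv4 and Etv5 and feedback inhibitors such as Sprouty and Dusp6. IDE2 is a small molecule found in a screen for inducers of definitive endoderm, from which gut and lung arise, and it raises phosphorylated Smad2 as Nodal does. In IDE2+FGF10 cells FGF10 was added and IDE2 removed at the same time, so the effects of these changes cannot be told apart. In bulk RNA, a change in the level per cell and a change in the share of a cell type cannot be told apart either.

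The upstream sequences of 5 genes are shown because the results turn on them: Hspa1a, Ddit3 and Csnk1g1 are the genes called both with and without IDE2b, Ppp1r15a is a further stress gene among the largest rises, and Fgf5 had the largest fall. Each run is the 250 bases before the gene's start in RefSeq (GRCm38.p6), written in the direction of the gene. Capitals mark matches, on either strand, to CCAAT (the CCAAT box), TGACGTCA (the cyclic AMP response element), GAANNTTC (the core of a heat shock element) or TGATGNAA (the core of the C/EBP-ATF response element). The positions are Hspa1a at chr17:34972157-34972406, minus strand, Ddit3 at chr10:127290543-127290792, plus strand, Csnk1g1 at chr9:65908760-65909009, plus strand, Ppp1r15a at chr7:45526269-45526518, minus strand, and Fgf5 at chr5:98253934-98254183, plus strand.
Hspa1a: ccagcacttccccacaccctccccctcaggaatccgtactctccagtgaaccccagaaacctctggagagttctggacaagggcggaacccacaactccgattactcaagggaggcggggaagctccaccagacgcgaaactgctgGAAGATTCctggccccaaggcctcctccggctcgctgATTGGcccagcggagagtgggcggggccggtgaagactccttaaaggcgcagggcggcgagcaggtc
Ddit3: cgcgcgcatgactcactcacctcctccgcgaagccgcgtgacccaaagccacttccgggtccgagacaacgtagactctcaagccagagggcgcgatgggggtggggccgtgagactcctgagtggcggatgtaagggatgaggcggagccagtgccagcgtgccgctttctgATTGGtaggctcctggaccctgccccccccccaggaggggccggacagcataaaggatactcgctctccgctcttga
Csnk1g1: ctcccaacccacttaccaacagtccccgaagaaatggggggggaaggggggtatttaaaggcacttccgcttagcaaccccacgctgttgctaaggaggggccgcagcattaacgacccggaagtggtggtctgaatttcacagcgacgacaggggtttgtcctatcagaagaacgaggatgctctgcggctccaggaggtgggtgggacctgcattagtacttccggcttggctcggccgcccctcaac
Ppp1r15a: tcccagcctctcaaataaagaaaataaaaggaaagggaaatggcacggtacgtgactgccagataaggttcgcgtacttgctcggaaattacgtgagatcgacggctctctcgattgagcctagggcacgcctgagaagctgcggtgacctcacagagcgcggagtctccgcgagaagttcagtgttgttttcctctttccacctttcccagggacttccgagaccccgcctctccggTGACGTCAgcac
Fgf5: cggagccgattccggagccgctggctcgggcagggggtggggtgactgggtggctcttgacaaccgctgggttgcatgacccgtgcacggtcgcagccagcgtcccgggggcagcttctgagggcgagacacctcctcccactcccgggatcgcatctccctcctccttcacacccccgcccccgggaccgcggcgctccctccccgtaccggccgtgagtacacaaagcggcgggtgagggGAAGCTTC
The Hspa1a window held a heat shock element core 104 to 97 bases before the start and an inverted CCAAT box 67 to 63 bases before it. Ddit3 had an inverted CCAAT box 77 to 73 bases before its start, Ppp1r15a a cyclic AMP response element 12 to 5 bases before its start, and Fgf5 a heat shock element core in the last 8 bases. None of these letters occurred in the Csnk1g1 window, and the C/EBP-ATF core occurred in none of the 5. Of 32851 windows of this length in the RefSeq table, 33.8% held CCAAT, 6.69% the heat shock core, 3.45% the C/EBP-ATF core and 1.55% the cyclic AMP element. These matches describe the letters and do not show that a factor binds there.

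Signals were measured on Illumina BeadChips with 25697 probes and are given as log2 normalized signal, in the order of replicates a and b. Between 11609 and 11861 probes were detected on the IDE2+FGF10 arrays, against 12765 and 13422 on the IDE2 arrays. After removal of probes near background, 9915 genes were tested. The IDE2+FGF10 arrays lay close together, with 180 genes at least 2-fold apart, against 1553 genes between IDE2a and IDE2b. Pearson's r, taken across genes that are not themselves replicates, was 0.990 between the IDE2+FGF10 arrays and 0.958 between the IDE2 arrays. IDE2b was the farther array: it correlated at 0.902 with both IDE2+FGF10 arrays, while IDE2a correlated at 0.966 with both. Differences from IDE2 are therefore given with all arrays and without IDE2b. Differences from IDE2+FGF2 do not use the IDE2 levels. Their errors and p-values do, because they come from the fit to all arrays, IDE2b included. The labels do not say whether replicates were separate cultures, so the p-values rest on a spread between arrays that may be technical only.

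With all arrays, 1377 of 9915 genes (13.9%) were called, meaning that the limma test across all genes gave an adjusted p under 0.05. Of these, 409 (4.13% of genes tested) were higher and 968 (9.76%) lower in IDE2+FGF10 than in IDE2. When each array was scaled only to its median, in place of quantile normalization, 194 genes were higher and 1410 lower, so 12.1% of calls were higher in place of 29.7%, and the median of all genes moved to -0.12 (log2). Without IDE2b, 3 genes (0.0303%) were called, all of them higher: Hspa1a, Ddit3 and Csnk1g1. At the looser limit of an adjusted p under 0.1, 165 genes (1.66%) were higher and 523 (5.27%) lower without IDE2b. Far fewer genes were also called without IDE2+FGF10a or without IDE2+FGF10b, and more without IDE2a. The cause of these shifts was not tested. Omitting any 1 array of the series leaves 3 residual degrees of freedom in place of 4. The single array remaining in its group is then assumed to vary like the other groups. IDE2 had the widest spread within a group (SD 0.50, against 0.24 in IDE2+FGF10). Errors without IDE2b leave that spread out and can be too small.

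In all 1377 called genes the arrays of the groups did not overlap, so the sign without IDE2b could not differ and says nothing further. Of the 409 higher genes, 219 were still at least 2-fold higher and 138 had an adjusted p under 0.1 without it. Of the 968 lower genes, 630 were still at least 2-fold lower and 499 had an adjusted p under 0.1. The median log2 difference of the higher genes was 1.34 with both IDE2 arrays, 1.02 from IDE2a and 1.61 from IDE2b, and that of the lower genes was -1.50, -1.11 and -1.90. Irrespective of any test, 228 genes (2.3%) were at least 2-fold higher in the IDE2+FGF10 mean than in each IDE2 array, 629 (6.34%) were at least 2-fold lower, and 0 lay 2-fold above one and 2-fold below the other. A further 2432 genes were 2-fold from IDE2b alone and 155 from IDE2a alone. In 65.5% of genes the arrays of the groups did not overlap (34.5% with IDE2+FGF10 higher, 31% lower), so such separation was common.

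**Figure D1:**
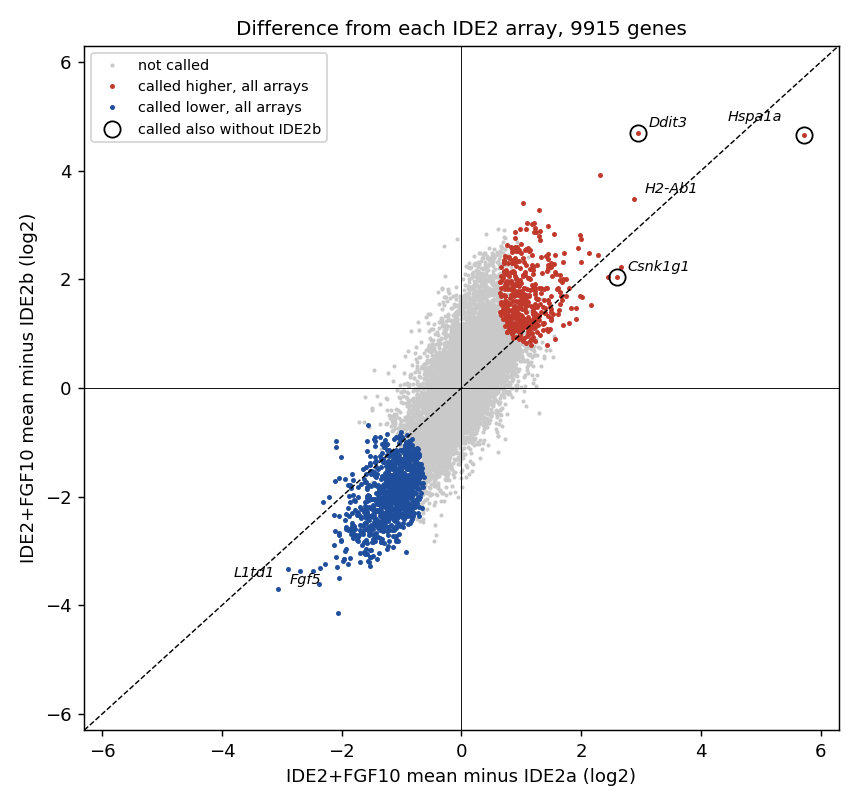
Log2 difference of the IDE2+FGF10 mean from IDE2a (horizontal axis) and from IDE2b (vertical axis) for 9915 genes, 1 point per gene. Red and blue points are the 409 higher and 968 lower genes called with all arrays, circles mark the 3 called also without IDE2b, and most coloured points lie farther from 0 on the vertical axis than the dashed line of equal differences.

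Errors of differences are standard errors of the fit throughout. The largest difference in the comparison was that of Hspa1a, which encodes the stress-inducible chaperone HSP70. Its log2 signal was 10.95 and 10.89 in IDE2+FGF10, against 5.20 and 6.27 in IDE2. Only 1 of the 2 IDE2 arrays detected the probe, and the groups lay far apart. The difference was 5.18 ± 0.37 (adjusted p = 0.00032), a 36.4-fold rise. IDE2a, the array that did not detect it, is the IDE2 array left without IDE2b, so the value without IDE2b is a bound, at least 43.3-fold higher (adjusted p = 0.0034). Hspa1a was called also without either IDE2+FGF10 array. IDE2+FGF10 was above the other groups as well: Hspa1a had 7.80 and 8.36 in IDE2+FGF2, a difference of 2.84 ± 0.37 (adjusted p = 0.0026), and 8.29 and 8.08 in ES cells. The near-identical Hspa1b may share this probe, so the signal is uncertain between these genes.

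No other chaperone tested rose with Hspa1a. Of 12 heat shock genes and cytosolic chaperones tested, 1 rose and 1 fell (8.33% each, against 4.13% and 9.76% of all genes). The median difference was 0.26, against 0.06 over all genes. The gene that fell was Hsp90aa1, the inducible HSP90, at 7.42 and 7.52 in IDE2+FGF10, against 8.18 and 9.52 in IDE2. Its difference of -1.38 ± 0.41 (adjusted p = 0.047) was -0.70 ± 0.29 without IDE2b (adjusted p = 0.24), so it did not hold, and it was not called without background correction. Hspa8, the constitutive HSP70 relative, had 15.81 and 15.87 in IDE2+FGF10, against 15.85 and 15.93 in IDE2, a difference of -0.05 ± 0.26 (adjusted p = 0.92), and -0.01 without IDE2b. Hspb1, a small heat shock protein, had 11.39 and 11.49 in IDE2+FGF10, against 11.04 and 9.16 in IDE2, and IDE2b alone was low. Its difference was 1.34 ± 0.49 (adjusted p = 0.091), and 0.39 ± 0.27 without IDE2b (adjusted p = 0.48).

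Genes of the integrated stress response, which cells use when translation initiation is curbed by phosphorylation of eIF2alpha, were higher in part. Of 22 tested, 6 rose and 0 fell (27.3% higher, against 4.13% of all genes), with a median log2 difference of 0.64, and 0.52 without IDE2b. Without IDE2b, Ddit3 alone was called, and 5 of the 6 had an adjusted p under 0.1. Ddit3 encodes CHOP, the transcription factor of this pathway that is tied to cell death. It had 11.22 and 11.29 in IDE2+FGF10, against 8.30 and 6.55 in IDE2, and the IDE2 arrays were themselves apart. The difference was 3.83 ± 0.46 (adjusted p = 0.0056), 14.2-fold, and 2.95 without IDE2b. The fit without IDE2b leaves the wide gap between the IDE2 arrays out of the error. A second probe gave 3.56 (adjusted p over probes 0.0068). Ppp1r15a, the GADD34 subunit that directs phosphatase to eIF2alpha, had 9.64 and 9.84 in IDE2+FGF10, against 7.45 and 7.28 in IDE2, and its IDE2 arrays were close. The difference was 2.37 ± 0.27 (adjusted p = 0.0056), and 2.28 ± 0.25 without IDE2b (adjusted p = 0.052).

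The other members that rose were Ddit4, Atf3, Trib3 and Shmt2. Ddit4 (REDD1), an inhibitor of mTORC1, had 12.55 and 12.58 in IDE2+FGF10, against 11.11 and 9.58 in IDE2, a difference of 2.22 ± 0.43 (adjusted p = 0.013) and of 1.45 ± 0.26 without IDE2b (adjusted p = 0.063). The transcription factor Atf3 had 9.74 and 9.84 in IDE2+FGF10, against 8.09 and 7.79 in IDE2, a difference of 1.85 ± 0.34 (adjusted p = 0.011) and of 1.70 ± 0.39 without IDE2b (adjusted p = 0.075). Trib3, a pseudokinase that binds CHOP and Akt, had 6.66 and 7.22 in IDE2+FGF10, against 5.02 and 5.47 in IDE2, and IDE2a did not detect it. It differed by 1.69 ± 0.31 (adjusted p = 0.011), and without IDE2b it was at least 2.73-fold higher (adjusted p = 0.053). Shmt2, the mitochondrial serine hydroxymethyltransferase, had 9.46 and 9.37 in IDE2+FGF10, against 8.46 and 7.69 in IDE2, and its difference of 1.34 ± 0.32 (adjusted p = 0.023) was 0.95 without IDE2b (adjusted p = 0.11). In each of these genes the IDE2+FGF10 arrays were above both IDE2 arrays, as in all 409 genes called higher, so this adds no support.

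Other genes of the same pathway were not called. Atf4, which encodes its main transcription factor, had 8.94 and 9.40 in IDE2+FGF10, against 8.73 and 8.50 in IDE2, a difference of 0.55 ± 0.33 (adjusted p = 0.28), and 0.44 without IDE2b. Asns, the asparagine synthetase gene that ATF4 activates, had 13.53 and 13.70 in IDE2+FGF10, against 13.90 and 14.57 in IDE2, a difference of -0.62 ± 0.30 (adjusted p = 0.19), and -0.29 without IDE2b. Chac1, a glutathione-degrading enzyme, had 10.66 and 10.67 in IDE2+FGF10, against 10.01 and 9.46 in IDE2, a difference of 0.93 ± 0.29 (adjusted p = 0.057), and 0.65 without IDE2b. Of 17 aminoacyl tRNA synthetase genes tested, 0 rose and 2 fell (11.8%, near the 9.76% of all genes). The 2 were Farsb (-1.19, adjusted p = 0.041) and Rars (-1.06, adjusted p = 0.048). Neither held without IDE2b (-0.74 for Farsb and -0.66 for Rars) or had a second probe that was called. Of 16 genes of the unfolded protein response in the endoplasmic reticulum, 0 rose and 1 fell (6.25%). That gene was Dnajc3, an inhibitor of eIF2alpha kinases, at 6.98 and 6.94 in IDE2+FGF10, against 8.27 and 8.78 in IDE2, with a difference of -1.56 ± 0.39 (adjusted p = 0.027) and of -1.31 ± 0.48 without IDE2b (adjusted p = 0.19). Hspa5, the chaperone BiP, had 6.35 and 6.11 in IDE2+FGF10, against 5.94 and 6.84 in IDE2, so its groups overlapped, and it differed by -0.16, or 0.29 without IDE2b.

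Against IDE2+FGF2, 258 genes (2.6%) were higher and 467 (4.71%) lower in IDE2+FGF10. In that contrast 6 of the 22 integrated stress response genes were higher and 0 lower, but not the same 6 as against IDE2. Ddit4 (0.93, adjusted p = 0.2) and Shmt2 (0.68, adjusted p = 0.21) were not called against IDE2+FGF2. The differences from IDE2+FGF2 were 2.36 ± 0.46 (adjusted p = 0.016) for Ddit3, 1.31 ± 0.27 (adjusted p = 0.018) for Ppp1r15a, 1.56 ± 0.34 (adjusted p = 0.022) for Atf3 and 1.23 ± 0.31 (adjusted p = 0.04) for Trib3. Ddit3 had 8.96 and 8.83 in IDE2+FGF2 and 6.81 and 6.53 in ES cells, and Ppp1r15a had 8.32 and 8.54 in IDE2+FGF2 but 10.04 and 9.93 in ES cells. Chac1 was higher by 1.67 ± 0.29 (adjusted p = 0.0093) than in IDE2+FGF2, where it had 9.05 and 8.94. Both contrasts use the same IDE2+FGF10 arrays, so they are not independent.

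**Figure D2:**
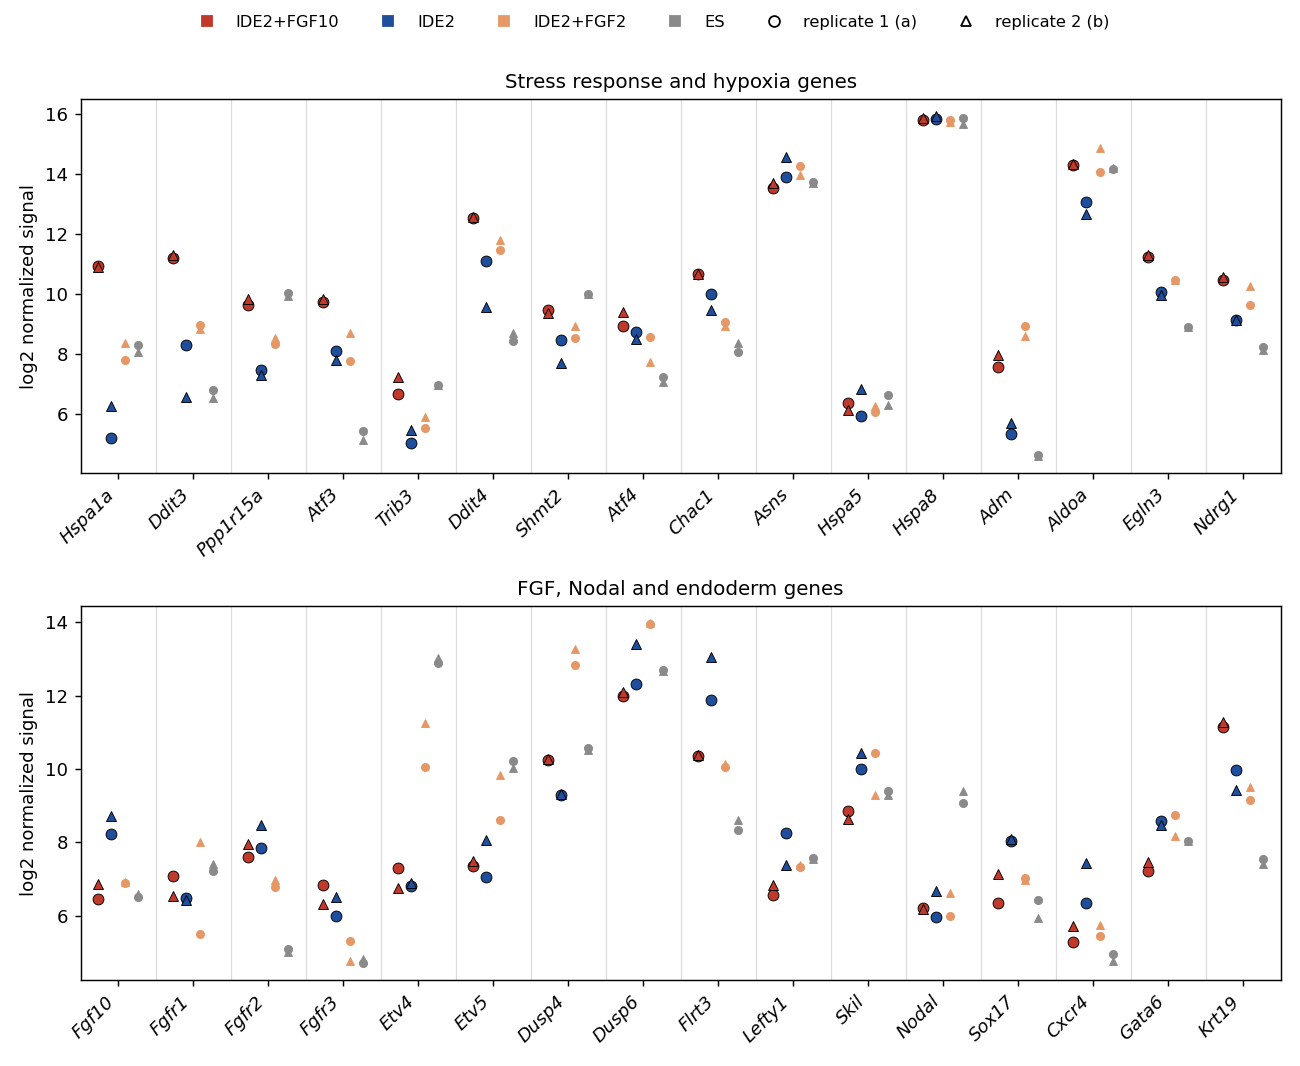
Log2 normalized signal on each of the 8 arrays for stress and hypoxia genes (top) and for FGF, Nodal and endoderm genes (bottom), with circles for replicate a and triangles for replicate b. In Hspa1a, Ddit3 and Adm both IDE2+FGF10 points lie above both IDE2 points, while Etv4 is similar in IDE2+FGF10 and IDE2 and higher in IDE2+FGF2 and ES.

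Genes that cells switch on within minutes of a stimulus were partly higher. Of 12 immediate early genes tested, 4 rose and 1 fell (33.3% and 8.33%, against 4.13% and 9.76% of all genes). Their median was 0.39, and 0.02 without IDE2b. Fos, a subunit of the transcription factor AP-1, had 10.74 and 10.66 in IDE2+FGF10, against 9.21 and 9.41 in IDE2, a difference of 1.39 ± 0.29 (adjusted p = 0.016) and of 1.49 ± 0.31 without IDE2b (adjusted p = 0.066). Its partner Jun had 9.39 and 9.27 in IDE2+FGF10, against 8.42 and 7.07 in IDE2, with IDE2b the lowest array. The difference of 1.58 ± 0.41 (adjusted p = 0.031) was 0.91 ± 0.31 without IDE2b (adjusted p = 0.17). Egr1, a zinc finger factor downstream of ERK, had 11.36 and 11.35 in IDE2+FGF10, against 10.16 and 10.41 in IDE2, a difference of 1.07 ± 0.27 (adjusted p = 0.028) and of 1.19 ± 0.25 without IDE2b (adjusted p = 0.068). Ccn1, a secreted matrix protein, differed by 1.53 ± 0.36 (adjusted p = 0.023), and by 1.62 ± 0.45 without IDE2b (adjusted p = 0.11). Egr2, a relative of Egr1, moved the other way. It had 8.62 and 8.99 in IDE2+FGF10, against 10.13 and 10.46 in IDE2, a difference of -1.50 ± 0.34 (adjusted p = 0.02) and of -1.33 ± 0.40 without IDE2b (adjusted p = 0.13). Under median scaling 2 of the 12 were higher and 1 lower. None of these held at an adjusted p under 0.05 without IDE2b.

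Gadd45b, a stress gene that activates a MAP kinase cascade, was among the 14 largest rises, at 10.56 and 10.51 in IDE2+FGF10, against 8.56 and 7.72 in IDE2. It differed by 2.40 ± 0.32 (adjusted p = 0.0076), and by 1.98 ± 0.24 without IDE2b (adjusted p = 0.052). Of 9 cell cycle inhibitors tested, 3 rose and 0 fell (33.3% and 0%, against 4.13% and 9.76% of all genes). The list median was 0.29 with all arrays, -0.05 without IDE2b and 0.75 against IDE2b alone. Besides Gadd45b these were Cdkn1a, the p21 gene, at 12.40 and 12.38 in IDE2+FGF10, against 11.31 and 10.72 in IDE2, and Cdkn2c, the p18 gene, at 6.49 and 6.73 in IDE2+FGF10, against 5.50 and 5.66 in IDE2. Cdkn1a differed by 1.38 ± 0.29 (adjusted p = 0.016), and by 1.08 ± 0.23 without IDE2b (adjusted p = 0.07). Cdkn2c differed by 1.03 ± 0.30 (adjusted p = 0.047), and by 1.10 ± 0.33 without IDE2b (adjusted p = 0.13). Of 15 p53 response genes, 2 rose and 1 fell (13.3% and 6.67%). Bbc3, the cell death gene PUMA, rose by 1.41 ± 0.37 (adjusted p = 0.031), and was 0.92 ± 0.33 without IDE2b (adjusted p = 0.18), with 0.47 at a second probe that was not called. Trp53inp1, a p53 cofactor, fell, with a difference of -1.89 ± 0.38 (adjusted p = 0.014) and of -1.25 ± 0.23 without IDE2b (adjusted p = 0.063). Mdm2, Ccng1 and 10 other genes of that list were not called.

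Of 13 genes of the oxidative stress response, 3 rose and 0 fell (23.1% and 0%, against 4.13% and 9.76% of all genes). Their median was 0.63, and 0.38 without IDE2b. Hmox1, which degrades haem, had 8.07 and 7.88 in IDE2+FGF10, against 5.97 and 5.66 in IDE2. It differed by 2.16 ± 0.33 (adjusted p = 0.008), and by 2.00 ± 0.39 without IDE2b (adjusted p = 0.065). Gstm1, a glutathione transferase, had 9.68 and 9.82 in IDE2+FGF10, against 8.05 and 7.42 in IDE2. It differed by 2.02 ± 0.33 (adjusted p = 0.0089), and by 1.70 ± 0.33 without IDE2b (adjusted p = 0.065). In both genes each IDE2+FGF10 array was above each IDE2 array, as in every gene called higher. Mt1, the metal-binding metallothionein, had 14.36 and 14.33 in IDE2+FGF10, against 13.61 and 12.24 in IDE2, and its difference of 1.42 ± 0.41 (adjusted p = 0.046) was 0.73 ± 0.31 without IDE2b (adjusted p = 0.24). Nqo1, Gclm and Gclc, which are standard targets of NRF2, were not called.

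Hypoxia and glycolysis genes were higher in part as well. Of 19 tested, 5 rose and 0 fell (26.3% higher, against 4.13% of all genes), with a median of 0.38 and, without IDE2b, of 0.61. Without IDE2b, 4 of these 5 had an adjusted p under 0.1, all but Aldoa, and none was under 0.05. Adm, the vasodilator peptide adrenomedullin, had 7.55 and 7.97 in IDE2+FGF10, against 5.31 and 5.71 in IDE2, and IDE2a did not detect it. It differed by 2.25 ± 0.29 (adjusted p = 0.0069), and without IDE2b it was at least 4.83-fold higher (adjusted p = 0.052). Ndrg1, a hypoxia-responsive gene, had 10.47 and 10.56 in IDE2+FGF10, against 9.12 and 9.14 in IDE2, with close replicates. Its difference of 1.39 ± 0.29 (adjusted p = 0.016) was 1.40 ± 0.31 without IDE2b (adjusted p = 0.07). Egln3, a prolyl hydroxylase that marks HIF for degradation and is itself a HIF target, had 11.24 and 11.31 in IDE2+FGF10, against 10.06 and 9.96 in IDE2. The difference was 1.27 ± 0.26 (adjusted p = 0.014), and 1.22 ± 0.23 without IDE2b (adjusted p = 0.064).

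The glycolytic enzymes that rose were Aldoa and Pfkl. Aldoa, an aldolase, had 14.31 and 14.34 in IDE2+FGF10, against 13.06 and 12.68 in IDE2, a difference of 1.45 ± 0.32 (adjusted p = 0.018) and of 1.27 ± 0.35 without IDE2b (adjusted p = 0.11). Pfkl, the liver phosphofructokinase, had 13.81 and 13.82 in IDE2+FGF10, against 12.71 and 12.50 in IDE2, a difference of 1.21 ± 0.26 (adjusted p = 0.017) and of 1.11 ± 0.24 without IDE2b (adjusted p = 0.07). Aldoc, a further aldolase outside that list, was among the largest rises at 10.82 and 10.87 in IDE2+FGF10, against 8.85 and 8.10 in IDE2. It differed by 2.37 ± 0.32 (adjusted p = 0.0077), and by 2.00 ± 0.29 without IDE2b (adjusted p = 0.053). Against IDE2+FGF2, 0 of the 19 genes were higher and 1 was lower (of all genes, 2.6% were higher and 4.71% lower). Adm was 8.92 and 8.61 and Aldoc 10.79 and 11.27 in IDE2+FGF2, so both groups that had left IDE2 lay above the IDE2 arrays in these genes. Ldha, Pgk1, Vegfa and Slc2a1 were among the 14 members not called.

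The FGF pathway itself showed few calls. Of 14 FGF ligands, receptors and receptor partners tested, 0 rose and 2 fell (0% and 14.3%, against 4.13% and 9.76% of all genes), both of them ligands, Fgf5 and Fgf10. The probe for Fgf10 reads the endogenous mRNA, not the added protein. Its log2 signal was 6.44 and 6.86 in IDE2+FGF10, against 8.23 and 8.73 in IDE2, so that endogenous Fgf10 was lower in both IDE2+FGF10 arrays. The difference was -1.83 ± 0.29 (adjusted p = 0.0085), and -1.58 ± 0.27 without IDE2b (adjusted p = 0.058), and a second probe gave -1.41 (adjusted p over probes 0.013). IDE2+FGF2 had 6.88 and 6.93 and ES cells 6.50 and 6.59, near the IDE2+FGF10 level. The difference from IDE2+FGF2 was -0.25 ± 0.29 (adjusted p = 0.64).

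Receptor genes were not called. Fgfr2, whose IIIb form is the FGF10 receptor, had 7.61 and 7.96 in IDE2+FGF10, against 7.84 and 8.47 in IDE2, a difference of -0.37 ± 0.30 (adjusted p = 0.44) with a 95% interval of -1.04 to 0.31. A second Fgfr2 probe gave 0.76 and was not called, and which receptor form each probe reads was not analysed here. Fgfr1 had 7.07 and 6.54 in IDE2+FGF10, against 6.47 and 6.42 in IDE2, a difference of 0.36 ± 0.62 (adjusted p = 0.73), and Fgfr3 had 6.85 and 6.33 in IDE2+FGF10, against 5.98 and 6.50 in IDE2, a difference of 0.35 ± 0.32 (adjusted p = 0.49). Without IDE2b the differences were 0.33 for Fgfr1, -0.05 for Fgfr2 and 0.61 for Fgfr3. Fgfr3 was higher in IDE2+FGF10 than in IDE2+FGF2, where it was detected on neither array, at 5.31 and 4.76. The fitted difference of 1.55 ± 0.32 (adjusted p = 0.02) therefore rests on undetected signals in IDE2+FGF2, and its size is uncertain.

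Targets of FGF and ERK signalling split. Of 14 tested, 2 rose and 3 fell against IDE2 (14.3% and 21.4%, against 4.13% and 9.76% of all genes). Their median was -0.16, and -0.04 without IDE2b. Relative to IDE2+FGF2, 0 were higher and 6 lower, with a median of -1.47 (of all genes, 2.6% were higher and 4.71% lower). Etv4 had 7.31 and 6.76 in IDE2+FGF10, against 6.81 and 6.89 in IDE2, so the groups overlapped. Its difference was 0.18 ± 0.39 (adjusted p = 0.79), and 0.22 ± 0.50 without IDE2b (adjusted p = 0.85). The same gene had 10.04 and 11.27 in IDE2+FGF2 and 12.88 and 13.03 in ES cells, a difference of -3.62 ± 0.39 (adjusted p = 0.00091) from IDE2+FGF2. Etv5 had 7.35 and 7.50 in IDE2+FGF10, against 7.05 and 8.05 in IDE2, a difference of -0.13 ± 0.43 (adjusted p = 0.87) from IDE2, 0.37 without IDE2b, and of -1.80 ± 0.43 (adjusted p = 0.033) from IDE2+FGF2. Dusp6, the ERK phosphatase, had 11.98 and 12.09 in IDE2+FGF10, against 12.32 and 13.42 in IDE2, a difference of -0.84 ± 0.35 (adjusted p = 0.13) from IDE2, -0.28 without IDE2b, and of -1.93 ± 0.35 (adjusted p = 0.012) from IDE2+FGF2. The FGF2 concentration was 500 ng/ml and that of FGF10 25 ng/ml, so dose and ligand cannot be told apart in that contrast. Spry4, a Sprouty gene, was detected on neither IDE2+FGF10 nor IDE2 arrays, and Spry2 was detected on 1 of 8 arrays.

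The targets that rose against IDE2 were Ier3 and Dusp4. Ier3, an immediate early gene linked to ERK, had 11.93 and 12.08 in IDE2+FGF10, against 9.69 and 8.09 in IDE2, with IDE2b far below IDE2a. It differed by 3.12 ± 0.43 (adjusted p = 0.0077), and by 2.32 ± 0.24 without IDE2b (adjusted p = 0.052). Dusp4, a nuclear phosphatase of ERK, had 10.25 and 10.29 in IDE2+FGF10, against 9.30 and 9.32 in IDE2, a difference of 0.96 ± 0.27 (adjusted p = 0.043) and of 0.97 ± 0.27 without IDE2b (adjusted p = 0.11). Its other probes gave 0.50 and 0.70, and neither was called. It was far lower than in IDE2+FGF2, which had 12.84 and 13.26. The targets that fell were Flrt3, Flrt2 and Spred1. Flrt3, a membrane protein that binds FGF receptors, had 10.37 and 10.39 in IDE2+FGF10, against 11.87 and 13.06 in IDE2, a difference of -2.09 ± 0.37 (adjusted p = 0.011) and of -1.49 ± 0.25 without IDE2b (adjusted p = 0.053). Spred1, an inhibitor of Ras signalling, had 8.35 and 8.13 in IDE2+FGF10, against 9.53 and 9.89 in IDE2, a difference of -1.48 ± 0.28 (adjusted p = 0.012) and of -1.30 ± 0.25 without IDE2b (adjusted p = 0.065). Flrt2 was not above background in IDE2+FGF10, and it was at least 2.18-fold lower than in IDE2 (adjusted p = 0.016, and 0.11 without IDE2b). For a gene not detected in a group, the fold is such a bound, set by the lowest signal that counted as detected on each array.

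Among Nodal and activin genes, which carry the signal that IDE2 is known to raise, 0 of 13 rose and 2 fell (15.4%, not far from the 9.76% of all genes, median -0.57, and -0.42 without IDE2b). Lefty1, a feedback inhibitor of Nodal, had 6.57 and 6.84 in IDE2+FGF10, against 8.26 and 7.39 in IDE2. Here IDE2a was the higher IDE2 array, and the difference was -1.12 ± 0.32 (adjusted p = 0.044) with all arrays and -1.55 ± 0.24 without IDE2b (adjusted p = 0.053). Smad2, the signal carrier, had 8.24 and 8.49 in IDE2+FGF10, against 9.25 and 9.84 in IDE2, a difference of -1.18 ± 0.30 (adjusted p = 0.029) and of -0.89 ± 0.27 without IDE2b (adjusted p = 0.14). Nodal had 6.21 and 6.19 in IDE2+FGF10, against 5.96 and 6.66 in IDE2, and the groups overlapped, with a difference of -0.12, or 0.24 without IDE2b. Lefty2 was detected in IDE2 but not in IDE2+FGF10, and its difference of -0.88 was not called (adjusted p = 0.073, and 0.27 without IDE2b). Skil, a target and inhibitor of Smad signalling, was the 1 gene of 9 TGF-beta targets that fell (11.1%, near the 9.76% of all genes). It had 8.85 and 8.62 in IDE2+FGF10, against 10.00 and 10.43 in IDE2, a difference of -1.48 ± 0.37 (adjusted p = 0.028) and of -1.26 ± 0.45 without IDE2b (adjusted p = 0.18). Smad7 was not analysed here. Of 13 genes of the BMP pathway, 1 rose and 2 fell (7.69% and 15.4%, not far from the 4.13% and 9.76% of all genes). These were Bmp7 (1.30, adjusted p = 0.028), the receptor Bmpr1a (-1.82, adjusted p = 0.021) and Smad5 (-1.18, adjusted p = 0.024). Without IDE2b their adjusted p was 0.14 for Bmp7, 0.11 for Bmpr1a and 0.11 for Smad5. Further probes for Bmpr1a (-0.79) and Smad5 (0.24 and -0.80) were not called.

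Definitive endoderm markers were called in both directions. Of 11 tested, 1 rose and 4 fell (9.09% and 36.4%, against 4.13% and 9.76% of all genes), although the median of the list was 0.27. The riser was the keratin gene Krt19, at 1.51. Counting genes not called too, 6 of the 11 lay above both IDE2 arrays and 5 below both. Such separation was seen in 65.5% of all genes. Sox17, a transcription factor of definitive endoderm, had 6.35 and 7.13 in IDE2+FGF10, against 8.03 and 8.09 in IDE2. It differed by -1.32 ± 0.33 (adjusted p = 0.026), and by -1.29 ± 0.38 without IDE2b (adjusted p = 0.13). A second probe gave -2.66 (adjusted p over probes 0.0041). Cxcr4, the chemokine receptor used to sort endoderm, was detected on both IDE2 arrays and on neither IDE2+FGF10 array, at 5.29 and 5.71 in IDE2+FGF10, against 6.34 and 7.45 in IDE2. It was at least 2.2-fold lower (adjusted p = 0.033, and 0.18 without IDE2b), and IDE2b was the higher IDE2 array. Trh, a hormone gene expressed in early endoderm, had 9.57 and 9.70 in IDE2+FGF10, against 11.57 and 11.31 in IDE2, a difference of -1.81 ± 0.30 (adjusted p = 0.0097) and of -1.94 ± 0.33 without IDE2b (adjusted p = 0.057). Gata6, an endoderm factor, had 7.21 and 7.46 in IDE2+FGF10, against 8.58 and 8.47 in IDE2, a difference of -1.19 ± 0.29 (adjusted p = 0.025) and of -1.25 ± 0.31 without IDE2b (adjusted p = 0.086). At an adjusted p under 0.1, Trh and Gata6 held without IDE2b and Sox17 and Cxcr4 did not. Without background correction 3 of the 11 were higher and 3 lower. Trh was higher still in ES cells, at 12.66 and 12.55, so its level does not single out endoderm. Foxa2 was below background on all arrays.

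Of 14 lung epithelial genes tested by limma, 0 rose (2 higher at an unadjusted p under 0.05) and 2 fell (14.3%, not far from the 9.76% of all genes), Gata6 and Trp63, and a further 11 had probes that did not pass the filter. Trp63, the basal cell factor, was not detected in IDE2+FGF10, and was at least 1.71-fold lower (adjusted p = 0.042, and 0.22 without IDE2b). Nkx2-1, the first marker of lung fate, and Sftpc, of alveolar type II cells, were below background on all 8 arrays. Sox9, a factor of distal lung tips, had 5.91 and 5.76 in IDE2+FGF10, against 6.75 and 6.85 in IDE2, a difference of -0.97 ± 0.31 (adjusted p = 0.062), and -0.92 without IDE2b. The type II gene Abca3 had 9.62 and 9.76 in IDE2+FGF10, against 9.23 and 9.22 in IDE2, a difference of 0.47 ± 0.29 (adjusted p = 0.29), and 0.46 without IDE2b. Napsa, a second type II gene, had 6.36 and 6.05 in IDE2+FGF10, against 5.56 and 5.28 in IDE2, where 1 array detected it, a difference of 0.78 ± 0.27 (adjusted p = 0.08), and 0.64 without IDE2b. Its other probes gave 0.08 and -0.20. Undifferentiated ES cells had 9.22 and 9.09, above both groups, so Napsa does not single out type II cells here. Pdpn, of type I cells, had 12.78 and 12.94 in IDE2+FGF10, against 12.71 and 12.99 in IDE2, and the groups overlapped (0.02, and 0.15 without IDE2b). Foxj1, of ciliated cells, had 6.91 and 6.54 in IDE2+FGF10, against 6.11 and 5.67 in IDE2, a difference of 0.84 ± 0.29 (adjusted p = 0.077), and 0.61 without IDE2b. ES cells had 6.82 and 6.71, near the IDE2+FGF10 level, so Foxj1 does not single out ciliated cells here.

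Epithelial genes were higher in part. Of 15 junction and keratin genes, 4 rose and 0 fell (26.7% and 0%, against 4.13% and 9.76% of all genes). Under median scaling 3 were higher and 1 lower. Krt19, a simple epithelial keratin, had 11.14 and 11.29 in IDE2+FGF10, against 9.98 and 9.43 in IDE2, a difference of 1.51 ± 0.30 (adjusted p = 0.013) and of 1.23 ± 0.26 without IDE2b (adjusted p = 0.07). It was also higher than in IDE2+FGF2, by 1.89 ± 0.30 (adjusted p = 0.0058). Krt7, a second such keratin, had 10.60 and 10.51 in IDE2+FGF10, against 9.69 and 9.21 in IDE2, a difference of 1.11 ± 0.33 (adjusted p = 0.048) and of 0.87 ± 0.35 without IDE2b (adjusted p = 0.23). The tight junction genes Cldn3 and Cldn7 differed by 1.76 ± 0.44 (adjusted p = 0.028) for Cldn3 and 1.06 ± 0.31 (adjusted p = 0.047) for Cldn7. Without IDE2b their adjusted p was 0.13 for Cldn3 and 0.21 for Cldn7. Cdh1, E-cadherin, had 11.24 and 10.94 in IDE2+FGF10, against 10.86 and 10.92 in IDE2, and was not called (0.20, and 0.23 without IDE2b).

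Of 8 factors and markers of the epithelial to mesenchymal transition, 0 rose and 2 fell (0% and 25%, against 4.13% and 9.76% of all genes). These were the repressors of E-cadherin Zeb1 and Zeb2. Zeb1 had 7.94 and 7.82 in IDE2+FGF10, against 8.98 and 9.97 in IDE2, a difference of -1.60 ± 0.34 (adjusted p = 0.016) and of -1.10 ± 0.26 without IDE2b (adjusted p = 0.079). Zeb2 had 6.61 and 7.07 in IDE2+FGF10, against 7.91 and 8.79 in IDE2, a difference of -1.51 ± 0.36 (adjusted p = 0.022) and of -1.07 ± 0.33 without IDE2b (adjusted p = 0.14). In both, IDE2b was the highest array of the comparison. Vim, the mesenchymal intermediate filament, and Acta2, smooth muscle actin, were not called (adjusted p = 0.5 for Vim and 0.3 for Acta2, and 0.9 for Vim and 0.41 for Acta2 without IDE2b). Of 15 mesenchyme and fibroblast genes, 1 rose and 2 fell (6.67% and 13.3%, not far from the shares of all genes). The riser was the proteoglycan gene Bgn (1.25, 1.44 without IDE2b, adjusted p = 0.024 and 0.067). The 2 that fell were Pdgfra (-1.49, -1.15 without IDE2b, adjusted p = 0.016 and 0.084) and Dcn, which was not detected in IDE2+FGF10 (at least 1.42-fold, adjusted p = 0.028 and 0.076).

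Fgf5, a growth factor of the epiblast that ES cells pass through on leaving pluripotency, had the largest fall of the comparison. Its log2 signal was 6.51 and 6.07 in IDE2+FGF10, against 9.35 and 9.99 in IDE2, with 8.87 and 8.30 in IDE2+FGF2 and 4.68 and 5.22 in ES cells. IDE2+FGF10 was thus below both other differentiated groups. The difference from IDE2 was -3.38 ± 0.35 (adjusted p = 0.0046), 10.4-fold lower, and -3.06 ± 0.37 without IDE2b (adjusted p = 0.052), and that from IDE2+FGF2 was -2.30 ± 0.35 (adjusted p = 0.0054). It was the 1 gene called of 9 epiblast and primitive streak genes tested (11.1%, near the 9.76% of all genes called lower). It was called also without IDE2+FGF10a.

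Pluripotency genes gave few calls. Of 23 tested, 1 rose and 3 fell, near the 4.13% and 9.76% of all genes. L1td1, an RNA-binding protein of pluripotent cells, was not detected in IDE2+FGF10, at 5.07 and 5.34 in IDE2+FGF10, against 8.11 and 8.54 in IDE2. It was at least 5.93-fold lower (adjusted p = 0.0056, and 0.053 without IDE2b). Nanog, a core factor, had 10.16 and 10.21 in IDE2+FGF10, against 11.30 and 11.59 in IDE2, a difference of -1.26 ± 0.27 (adjusted p = 0.016) and of -1.12 ± 0.25 without IDE2b (adjusted p = 0.072). Zfp42, the Rex1 gene, had 8.09 and 7.33 in IDE2+FGF10, against 9.03 and 8.91 in IDE2, a difference of -1.26 ± 0.32 (adjusted p = 0.028) and of -1.32 ± 0.37 without IDE2b (adjusted p = 0.11). Utf1, a chromatin protein of ES cells, rose by 1.35 ± 0.37 (adjusted p = 0.037), and was 0.84 ± 0.33 without IDE2b (adjusted p = 0.21). Without background correction 0 of the 23 were higher and 4 lower. Pou5f1, the Oct4 gene, had 10.29 and 10.13 in IDE2+FGF10, against 10.31 and 9.31 in IDE2, and the groups overlapped (0.40, and -0.10 without IDE2b). Against IDE2+FGF2, 8 of the 23 were lower and 0 higher (of all genes, 4.71% were lower and 2.6% higher), with Pou5f1 at -1.95 ± 0.39 (adjusted p = 0.018). In that contrast ES cells lay highest, at 15.23 and 14.78 for Pou5f1.

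**Figure D3:**
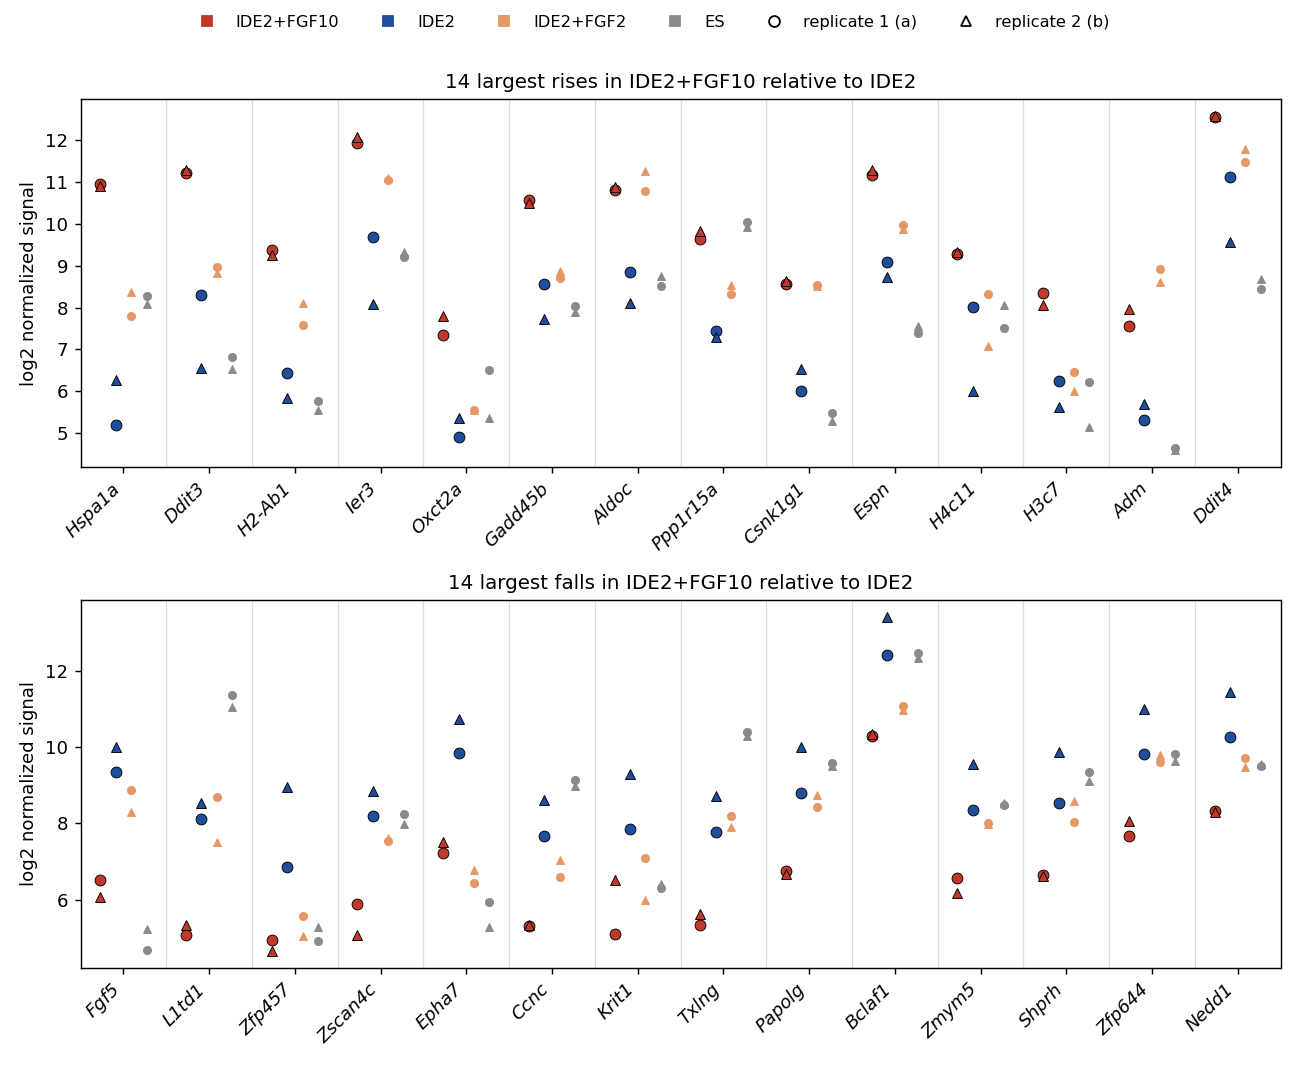
Log2 normalized signal on each of the 8 arrays for the 14 largest rises (top) and 14 largest falls (bottom) in IDE2+FGF10 relative to IDE2, with circles for replicate a and triangles for replicate b. The 28 genes were chosen among those whose groups do not overlap, and in all 14 falls IDE2b lies above IDE2a.

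Among the 14 largest rises were also genes outside the fixed lists. H2-Ab1, the beta chain of an MHC class II molecule that presents antigen, had 9.37 and 9.26 in IDE2+FGF10, against 6.44 and 5.83 in IDE2. It differed by 3.18 ± 0.31 (adjusted p = 0.0043), and by 2.88 ± 0.30 without IDE2b (adjusted p = 0.052), and its 3 other probes gave 2.30 or more, each called. IDE2+FGF2 had 7.58 and 8.10, and the difference from it was 1.47 ± 0.31 (adjusted p = 0.021). H2-Eb1, a second class II beta chain, had 7.27 and 6.84 in IDE2+FGF10, against 6.14 and 5.45 in IDE2, a difference of 1.26 ± 0.33 (adjusted p = 0.031) and of 0.92 ± 0.31 without IDE2b (adjusted p = 0.16). Cd74, the invariant chain that class II molecules need, was detected on none of these 4 arrays. Of 10 genes of MHC class I and the interferon response, 3 rose (H2-D1, Tap1 and Psmb9) and 1 fell (Irf1), 30% and 10%, against 4.13% and 9.76% of all genes. Without IDE2b none of these 4 was called (adjusted p = 0.14 for H2-D1, 0.2 for Psmb9 and 0.14 for Irf1). Under median scaling 0 of these 10 were higher and 1 was lower, and without background correction 1 was higher. The other Irf1 probes gave -0.815, -0.421, -0.398 and -0.775, and none of them was called. Tap1, the peptide transporter, differed by 1.35 ± 0.29 (adjusted p = 0.016), and by 1.12 ± 0.27 without IDE2b (adjusted p = 0.084).

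Csnk1g1, which encodes casein kinase 1 gamma 1, had 8.55 and 8.63 in IDE2+FGF10, against 6.00 and 6.54 in IDE2. The difference was 2.32 ± 0.29 (adjusted p = 0.0056), and 2.59 without IDE2b. IDE2+FGF2 was close to IDE2+FGF10, at 8.55 and 8.51, a difference of 0.06 ± 0.29 (adjusted p = 0.92), and ES cells had 5.49 and 5.29. Its other probes did not follow: they gave 0.82 and -0.92, and neither was called. The rise of Csnk1g1 therefore holds for 1 of 3 probes. Espn, an actin-bundling protein, had 11.17 and 11.28 in IDE2+FGF10, against 9.10 and 8.73 in IDE2, a difference of 2.31 ± 0.27 (adjusted p = 0.0056) and of 2.12 ± 0.24 without IDE2b (adjusted p = 0.052). A second Espn probe gave 1.95 and was not called. Oxct2a, a ketone body enzyme known from the testis, was not detected in IDE2, at 7.33 and 7.81 in IDE2+FGF10, against 4.91 and 5.35 in IDE2. It was at least 4.44-fold higher (adjusted p = 0.008, and 0.061 without IDE2b), and its close copy Oxct2b may share the probe.

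The histone genes H4c11 and H3c7 were among the largest rises too. H4c11 had 9.28 and 9.32 in IDE2+FGF10, against 8.01 and 6.01 in IDE2, with the IDE2 arrays far apart. Its difference of 2.29 ± 0.58 (adjusted p = 0.029) was 1.29 ± 0.50 without IDE2b (adjusted p = 0.21). H3c7 had 8.35 and 8.06 in IDE2+FGF10, against 6.25 and 5.63 in IDE2, a difference of 2.27 ± 0.39 (adjusted p = 0.0099) and of 1.95 ± 0.46 without IDE2b (adjusted p = 0.078). Of all 38 clustered histone genes tested, a group chosen after these values were seen, 10 rose and 0 fell. The share that rose was 26.3%, against 4.13% of all genes, and the list had a median of 1.38. Without IDE2b that median was 0.58, and 2 genes had an adjusted p under 0.1. Against IDE2b alone it was 2.26, so IDE2b was low in these genes. Near-identical histone copies may share probes, and most of these mRNAs lack a poly(A) tail.

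The 14 largest falls other than Fgf5 and L1td1 were 12 genes with varied roles. Epha7, an ephrin receptor of axon guidance, had 7.23 and 7.50 in IDE2+FGF10, against 9.84 and 10.73 in IDE2, a difference of -2.92 ± 0.36 (adjusted p = 0.0056) and of -2.48 ± 0.34 without IDE2b (adjusted p = 0.053). Its other probes gave -1.53 and -1.85, both called. Zscan4c, of a gene family switched on in the embryo at the 2-cell stage, had 5.89 and 5.06 in IDE2+FGF10, against 8.18 and 8.84 in IDE2, with 1 of the IDE2+FGF10 arrays detecting it. The difference was -3.03 ± 0.35 (adjusted p = 0.0056), and -2.70 ± 0.36 without IDE2b (adjusted p = 0.053), and near-identical Zscan4 copies may share its probe. Bclaf1, an RNA-processing factor tied to cell death, had 10.30 and 10.33 in IDE2+FGF10, against 12.40 and 13.41 in IDE2, a difference of -2.60 ± 0.34 (adjusted p = 0.0069) and of -2.09 ± 0.23 without IDE2b (adjusted p = 0.052), but a second probe gave 0.45 and was not called. Nedd1, which recruits gamma-tubulin to the centrosome, had 8.33 and 8.28 in IDE2+FGF10, against 10.27 and 11.45 in IDE2, a difference of -2.55 ± 0.36 (adjusted p = 0.0077) and of -1.96 ± 0.24 without IDE2b (adjusted p = 0.052). Papolg, a poly(A) polymerase, had 6.74 and 6.66 in IDE2+FGF10, against 8.78 and 10.00 in IDE2. It differed by -2.69 ± 0.38 (adjusted p = 0.0077), and by -2.08 ± 0.25 without IDE2b (adjusted p = 0.052). Krit1, a junction protein of endothelium, had 5.11 and 6.50 in IDE2+FGF10, against 7.84 and 9.30 in IDE2. With the IDE2+FGF10 arrays themselves apart and 1 of them not detecting it, its difference of -2.77 ± 0.56 (adjusted p = 0.014) was -2.04 ± 0.63 without IDE2b (adjusted p = 0.14).

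Ccnc, the cyclin of the Mediator kinase module, and Txlng, a taxilin, were not detected in IDE2+FGF10. Ccnc had 5.30 and 5.32 in IDE2+FGF10, against 7.67 and 8.62 in IDE2, and was at least 5.24-fold lower (adjusted p = 0.0056, and 0.052 without IDE2b). Txlng had 5.34 and 5.62 in IDE2+FGF10, against 7.76 and 8.71 in IDE2, and was at least 5.58-fold lower (adjusted p = 0.0056, and 0.052 without IDE2b). Shprh, a ubiquitin ligase of DNA damage tolerance, had 6.64 and 6.63 in IDE2+FGF10, against 8.52 and 9.87 in IDE2, a difference of -2.56 ± 0.41 (adjusted p = 0.0083) and of -1.89 ± 0.30 without IDE2b (adjusted p = 0.053). A second Shprh probe gave -0.91 and was not called. The zinc finger genes Zfp457, Zfp644 and Zmym5 made up the rest. Zfp457 was detected in IDE2 but not in IDE2+FGF10, at 4.93 and 4.66 in IDE2+FGF10, against 6.85 and 8.94 in IDE2, and was at least 4.41-fold lower (adjusted p = 0.01, and 0.053 without IDE2b). Zfp644 differed by -2.55 ± 0.38 (adjusted p = 0.0077), and by -1.96 ± 0.27 without IDE2b (adjusted p = 0.053). Zmym5 differed by -2.58 ± 0.38 (adjusted p = 0.0077), and by -1.98 ± 0.26 without IDE2b (adjusted p = 0.053).

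**Figure D4:**
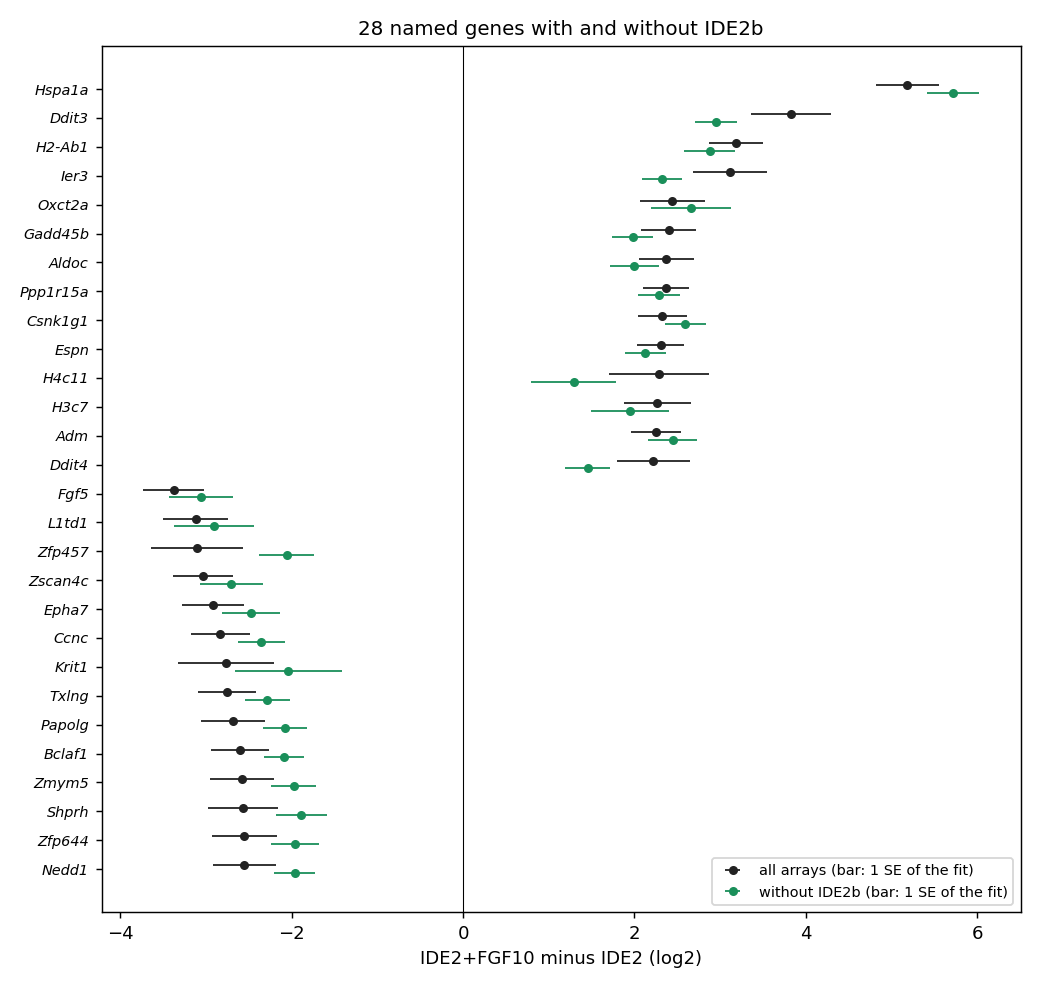
Log2 difference between IDE2+FGF10 and IDE2 for the 14 largest rises and 14 largest falls, with all arrays (black) and without IDE2b (green), with bars of 1 standard error of the fit. The sign is fixed by the choice of genes, and Hspa1a, Adm and Oxct2a were not detected on IDE2a. All 14 falls are smaller without IDE2b, as for Zfp457 at -2.06 without IDE2b and -3.10 with all arrays.

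Zinc finger genes named Zfp were a recurrent group among the falls, a group also chosen after the values were seen. Of 195 tested, 2 rose and 58 fell (1.03% and 29.7%, against 4.13% and 9.76% of all genes), with a median of -0.55, and -0.42 without IDE2b. Without IDE2b 37 of the 195 were lower at an adjusted p under 0.1. Of the 195, 47 were at least 2-fold lower than each IDE2 array. The 2 that rose were Zfp36, which encodes an mRNA decay factor, and Zfp369. Without background correction 45 fell, and under median scaling 71 did.

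Lipid genes were called in both directions. Of 15 genes of sterol synthesis and uptake, 2 rose and 4 fell (13.3% and 26.7%, against 4.13% and 9.76% of all genes). Under median scaling 0 of the 15 were higher and 5 lower. Hmgcs1, which makes HMG-CoA at the start of the pathway, had 13.95 and 13.98 in IDE2+FGF10, against 15.21 and 15.77 in IDE2, a difference of -1.52 ± 0.28 (adjusted p = 0.012) and of -1.24 ± 0.23 without IDE2b (adjusted p = 0.064). Hsd17b7, a later enzyme, had 8.98 and 8.76 in IDE2+FGF10, against 10.34 and 10.41 in IDE2, a difference of -1.51 ± 0.27 (adjusted p = 0.011) and of -1.47 ± 0.27 without IDE2b (adjusted p = 0.064). The later enzymes Msmo1 and Sc5d also fell. Msmo1 differed by -1.42 ± 0.34 (adjusted p = 0.023), and Sc5d, not detected in IDE2+FGF10, was at least 1.9-fold lower (adjusted p = 0.028). Without IDE2b their adjusted p was 0.12 for Msmo1 and 0.15 for Sc5d. The genes that rose were Srebf2, the pathway's transcription factor, at 1.17 ± 0.29 (adjusted p = 0.027), and the enzyme Mvd, at 1.17 ± 0.35 (adjusted p = 0.049), and neither held (adjusted p = 0.12 for Srebf2 and 0.26 for Mvd). Of 10 fatty acid synthesis genes, 1 fell (10%, near the 9.76% of all genes), the elongase Elovl6. It had 7.76 and 7.16 in IDE2+FGF10, against 9.51 and 10.13 in IDE2, a difference of -2.36 ± 0.35 (adjusted p = 0.0077) and of -2.05 ± 0.38 without IDE2b (adjusted p = 0.064).

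Genes of the machinery that most cells express were called in part. Of 19 mitochondrial respiration genes, 2 rose and 0 fell (10.5% and 0%, against 4.13% and 9.76% of all genes). These were Ndufb9 and Atp5o, with 0.84 for Ndufb9 and 0.72 for Atp5o without IDE2b. The list median was 0.77, and 0 genes of the list were called without background correction. Without IDE2b that median was 0.15, and against IDE2b alone it was 1.16. Of 15 cytosolic ribosomal genes limma called 0 (4 at an unadjusted p under 0.05, the smallest adjusted p being 0.061, at Rps9), although 3 were higher under median scaling. Of 12 mitosis genes, 0 rose and 3 fell (25%, against 9.76% of all genes). The 3 were Kif11 (-1.66, -1.31 without IDE2b), Ttk (-1.36, -0.92, detected on 1 IDE2+FGF10 array) and Top2a (-1.18, -0.78). Of 19 replication and G1/S genes, 1 fell (5.26%), Ccne2 (-1.64, -0.84 without IDE2b). None of these held at an adjusted p under 0.05 without IDE2b.

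**Figure D5:**
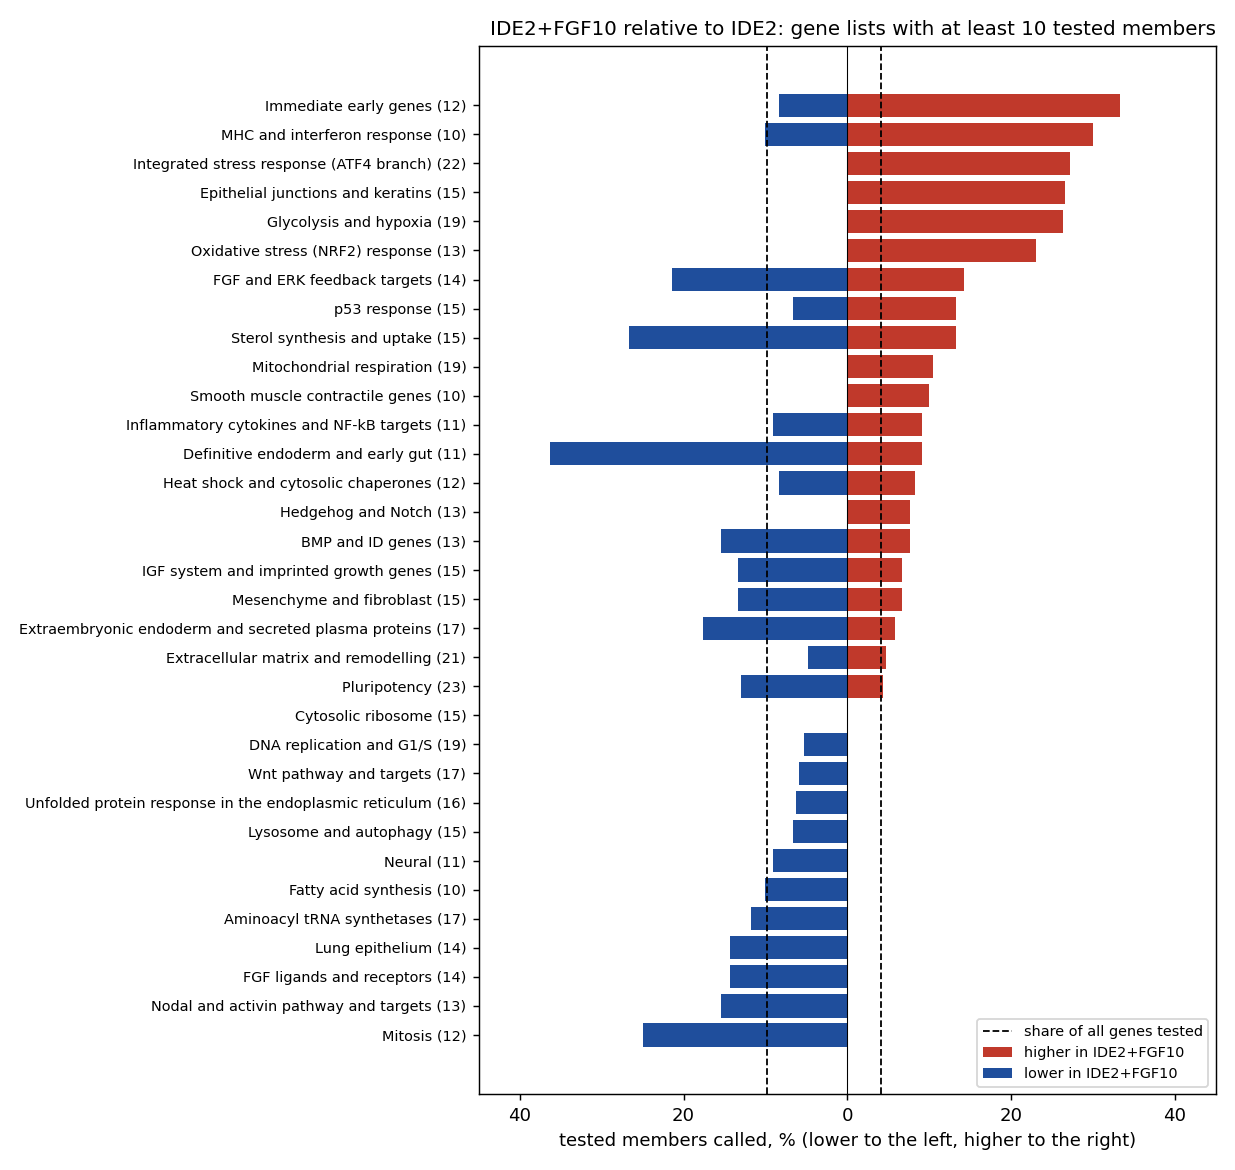
Share of tested members called higher (right, red) or lower (left, blue) in IDE2+FGF10 than in IDE2 for each gene list with at least 10 tested members, whose number stands in parentheses. Dashed lines mark the shares of all genes tested, 4.13% higher and 9.76% lower, and the immediate early, MHC, integrated and oxidative stress, epithelial and hypoxia lists reach above 20% on the higher side.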

How the data were processed

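Total RNA was extracted with Trizol, treated with DNase and labelled as biotinylated cRNA with the Ambion MessageAmp kit, per the labels' protocols. The main table holds a deposited average intensity for each probe, neither background-corrected nor normalized, per the file headers, and BeadStudio is named in the submitters' processing notes. The deposited bead count gives the beads behind each probe (median 38 to 40), the deposited bead error signal was not used, and a detection p-value accompanies every intensity, per the file headers. A second deposited table of intensities served as an alternative.

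Signals were background-corrected, quantile normalized and put on the log2 scale with the function neqc (R 4.3.3, limma 3.58.1, offset 16). The filter left 14502 probes that reached a detection p under 0.05 on 2 or more arrays, and each gene took its probe with the highest mean. Of 25697 probes, 23978 named 1 gene, 0 several and 1719 none. Among 2643 genes with several probes, 1 had calls in opposite directions.

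A limma model with 4 group means was fitted to all 8 arrays (4 residual and 6.64 prior degrees of freedom), with Benjamini-Hochberg adjustment over all 9915 genes. An exact permutation test of 2 arrays against 2 cannot go below 0.333. Same-numbered IDE2+FGF10 and IDE2 arrays did not deviate together (r = 0.012), so replicate numbers were not used as a block.

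Genes and lists (44 lists, 564 entries tested) were chosen with earlier results of these data known. Genes were named by a rule: the 14 largest rises and 14 largest falls among called genes whose arrays did not overlap, up to 4 members per list, and a fixed set of FGF, Nodal, endoderm, lung, pluripotency and stress genes. Atf3, Shmt2, Fos, Egr1, Egln3, Ndrg1, Pfkl, Zfp42, Spred1, H2-Eb1, Cdkn2c and other genes named beyond that rule were picked after their values were seen. Folds of undetected genes are lower bounds. Alternatives were other scalings, filters, probes, error models and each array left out. The code was tested on simulated data.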

Additional observations from a re-analysis of the deposited data

How the results depend on the processing

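The main fit called 1377 genes. The total called was 1190 without background correction, 1206 in the second deposited table and 1604 under median scaling. It was 1042 with no detection filter, 1381 with a strict one and 1332 with an intensity trend. These totals do not say how many of the 1377 were kept. With array weights the counts were 898 in all and 225 higher. Median scaling gave 194 higher. With only the 4 arrays of the 2 groups, whether normalized alone or with the others, limma called 0 genes (2830 and 2828 at an unadjusted p under 0.05), and that fit has fewer samples. Leaving out 1 array at a time gave 1 to 3267 calls, 1 to 1530 of them higher and 0 to 1737 lower, with 777 without either ES array. Without IDE2b, 1999 genes had an unadjusted p under 0.05 (1264 of them lower), and without IDE2+FGF10b 1208 were lower at that limit. When the 7 arrays were normalized again it was 100 calls (21 higher, 79 lower), and settings chosen after seeing the data gave 688 at an adjusted p under 0.1 (165 higher, 523 lower), 325 with an intensity trend (63 higher, 262 lower) and 1210 when IDE2+FGF2b was left out too. Of the 1377, 430 were called in 0 of the 4 fits without IDE2b and 3 in all 4. Against IDE2+FGF2, 725 calls became 68 to 1048 when 1 array was left out. With the replicate block, which the numbers do not support as pairs, the counts were 1324 and 665. Of 117 named called genes, 0 reversed under any setting. Of these genes, 0 were still called with only the 4 arrays, 3 without IDE2b, 4 without IDE2+FGF10a, 1 without IDE2+FGF10b, 93 without background correction, 94 under median scaling, 82 with array weights and 107 with the block. The cause of these shifts was not tested. 2 arrays per group limit precision, and genes near background have bounds only.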

Other observations

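Of 17 genes of extraembryonic endoderm and secreted plasma proteins, 1 rose and 3 fell, Pdgfra among them. These were 5.88% and 17.6%, against 4.13% and 9.76% of all genes. Apoe, the apolipoprotein, was higher in IDE2+FGF10, at 10.14 and 9.77 in IDE2+FGF10, against 8.50 and 7.74 in IDE2, a difference of 1.84 ± 0.35 (adjusted p = 0.013) and of 1.45 ± 0.36 without IDE2b (adjusted p = 0.084). The laminin chain Lama1 was lower, at 11.48 and 11.54 in IDE2+FGF10, against 12.85 and 12.96 in IDE2, a difference of -1.40 ± 0.27 (adjusted p = 0.012) and of -1.35 ± 0.25 without IDE2b (adjusted p = 0.064), and Sox7, a factor of extraembryonic endoderm, was not detected in IDE2+FGF10 and was at least 2.25-fold lower (adjusted p = 0.015, and 0.083 without IDE2b). Of 21 matrix genes 1 rose and 1 fell (4.76% each, against 4.13% and 9.76% of all genes). Loxl2, a collagen cross-linking enzyme, was higher, at 8.30 and 8.03 in IDE2+FGF10, against 6.79 and 6.34 in IDE2, a difference of 1.60 ± 0.28 (adjusted p = 0.011) and of 1.37 ± 0.25 without IDE2b (adjusted p = 0.063). Rarb, a retinoic acid receptor, was lower, at 6.99 and 6.96 in IDE2+FGF10, against 8.02 and 9.32 in IDE2, a difference of -1.70 ± 0.39 (adjusted p = 0.019) and of -1.04 ± 0.24 without IDE2b (adjusted p = 0.076). Of 15 genes of the IGF system and imprinted growth genes, 1 rose and 2 fell. These were 6.67% and 13.3%, not far from the 4.13% and 9.76% of all genes. The imprinted gene Peg3 was lower (-1.82, and -1.27 without IDE2b), and of the IGF-binding proteins Igfbp6 was higher (1.55, and 1.04) and Igfbp5 lower (-1.19, and -0.92). Of 11 inflammatory genes, 1 rose and 1 fell (9.09% each, against 4.13% and 9.76% of all genes), both adhesion molecules. Icam1 was higher by 1.52 ± 0.40 (adjusted p = 0.031), and by 1.47 ± 0.51 without IDE2b (adjusted p = 0.18). Vcam1 was not detected in IDE2+FGF10 and was at least 1.12-fold lower (adjusted p = 0.026, and 0.11 without IDE2b).

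Of 6 trophoblast genes, 2 rose and 0 fell (33.3%, against 4.13% of all genes), with a median of 0.91, and 0.76 without IDE2b, and 4 were higher at an unadjusted p under 0.05. The 2 called were Krt7, a keratin of many epithelia, and Plac1, with a difference of 1.03 ± 0.31 (adjusted p = 0.049) and of 0.65 ± 0.23 without IDE2b (adjusted p = 0.19). Under median scaling limma called 0 of the 6. Plvap, of endothelium, was higher by 1.58 ± 0.33 (adjusted p = 0.016), and by 1.15 without IDE2b, where it was not called. It was the 1 gene called of 9 endothelial and blood genes tested (11.1%, against 4.13% of all genes called higher). Cnn2 was the 1 gene called of 10 smooth muscle genes (10%, against 4.13% of all genes called higher). Its difference was 1.18 ± 0.26 (adjusted p = 0.017), and 1.17 without IDE2b, where it was not called. Tnnc1, a troponin of heart and slow muscle, had 10.16 and 10.05 in IDE2+FGF10, against 9.20 and 7.50 in IDE2, with a difference of 1.75 ± 0.47 (adjusted p = 0.035) and of 0.90 ± 0.32 without IDE2b (adjusted p = 0.19). Map2, of neurons, was lower, with a difference of -1.53, and so was Ednrb, an endothelin receptor of the neural crest, with -1.33 (adjusted p = 0.032 for Map2 and 0.02 for Ednrb, and 0.19 and 0.097 without IDE2b). In the list of 5 glial and neural crest genes that holds Ednrb, Ngfr was higher. It was not detected in IDE2, was at least 1.63-fold higher, lay at the threshold (adjusted p = 0.05, and 0.18 without IDE2b), and was not called without background correction. Of 3 macrophage and leukocyte genes tested, limma called 0 (1 at an unadjusted p under 0.05), and the smallest adjusted p was 0.086, at Aif1. Wnt5a was the 1 gene called of 17 Wnt pathway genes (5.88%, against 9.76% of all genes called lower). It was not detected in IDE2+FGF10 (at least 1.71-fold lower, adjusted p = 0.033), and it was not called without IDE2b.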
